A study of Mus musculus with 50 samples.

Results

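Sgip1 and 9 further genes of clathrin-mediated endocytosis were followed on the Agilent arrays: Fcho2, Dnm1, Dnm2, Dnm3, Ap2a1, Ap2b1, Amph, Bin1 and Synj1. Their probes were found through the RefSeq accession, or through the symbol in parentheses in the probe description, among all probes that were not controls. The 10 genes have 16 probes, of 16831 named genes and 41174 probes on the array. Sgip1 was chosen because of its own values on these arrays, so its ratios are a description and were not tested. The other 9 genes were chosen by function, with the question of whether the arrays on which Sgip1 stood apart also stood apart for them.

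The samples were hippocampi of 5 wild-type mice (WT) and 5 transgenic mice (TG). Both groups were male C57/BL6j mice that lived alone for 7 days, and the TG mice overexpressed DCLK-short, a constitutively active splice variant of the doublecortin-like kinase gene, on that background. The promoter that drives the transgene is not given in the sources used here. On each of the 10 two-color Agilent arrays RNA of a WT mouse was hybridized against RNA of a TG mouse, every mouse was used on 2 arrays, once in Cy3 and once in Cy5, and no pair of mice was repeated. The tissue was whole hippocampus, so fewer cells of a type and less RNA per cell cannot be told apart.

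Clathrin-mediated endocytosis takes membrane and cargo into the cell, and at synapses it helps to recover vesicle membrane after transmitter release. Muniscins, to which Sgip1, Fcho2 and Fcho1 belong, bend the membrane where a pit begins and bind the adaptor AP-2, of which Ap2a1 and Ap2b1 encode the large alpha and beta subunits. Amphiphysins (Amph and Bin1) bind curved membrane and recruit the dynamins (Dnm1, Dnm2, Dnm3), which cut the vesicle from the membrane. Synaptojanin (Synj1) removes phosphates from the inositol lipids that hold the coat.

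The 250 bases before the start of Sgip1 and of Fcho2 are shown because these member genes had low ratios on the same arrays. The third muniscin, Fcho1, is not a member and had high ratios there. They were taken from RefSeq promoters of GRCm38.p6, in the direction of the gene, at chr4:102759885-102760134 (+ strand) for Sgip1 and chr13:98815450-98815699 (- strand) for Fcho2. Capitals mark matches on either strand to GGGCGG, the GC box, to TGACG, the core of the cyclic AMP response element, to CCAAT, the CCAAT box, to TATAAA, a form of the TATA box, and to CACGTG, an E box.
Sgip1: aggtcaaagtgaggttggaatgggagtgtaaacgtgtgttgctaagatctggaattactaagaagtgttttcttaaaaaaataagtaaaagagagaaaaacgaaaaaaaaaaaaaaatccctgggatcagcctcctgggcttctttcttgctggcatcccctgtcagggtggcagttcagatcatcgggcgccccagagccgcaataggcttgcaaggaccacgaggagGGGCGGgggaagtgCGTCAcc
Fcho2: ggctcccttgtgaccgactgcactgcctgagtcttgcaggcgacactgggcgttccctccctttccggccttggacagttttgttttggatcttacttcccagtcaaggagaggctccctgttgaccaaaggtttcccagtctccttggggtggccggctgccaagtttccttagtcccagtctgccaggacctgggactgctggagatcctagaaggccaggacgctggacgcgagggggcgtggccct
The Sgip1 window held 1 GC box, 21 to 16 bases before the start, and 1 TGACG match on the opposite strand, 7 to 3 bases before the start. The marked matches do not overlap. Fcho2 had no match to any of the 5 motifs in this window. Among 32851 promoter windows of this length, 32.7% held the GC box, 17.8% the TGACG core, 33.8% the CCAAT box, 12.4% the TATA box and 6.02% the E box. GC content was 48% for Sgip1 and 60.4% for Fcho2.

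All values are log2 ratios of TG over WT as the arrays are labelled, and this direction is the opposite of that of the study. The labels are in doubt. Tmem254a, a transmembrane protein gene used as a check, had a ratio of -0.99 ± 0.0491 (SE, n = 10 arrays; limma FDR = 1.02e-05), with every array between -1.16 and -0.63. On the ABI arrays, a one-color platform run on mice of the same 2 groups, its log2 signal was 12.7 to 13.2 in 5 WT and 14.6 to 15.2 in 5 TG samples, a difference of 1.81 ± 0.174 (SE; limma FDR = 0.0251). An exchange of the 5 Agilent arrays with WT in Cy3 for the 5 with WT in Cy5 turns the sign of every Agilent ratio and leaves the counts of called probes on all arrays as they are. Slide series and dye orientation divide the arrays in the same way and cannot be told apart.

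The arrays labelled WT1/TG4 and WT3/TG4 stood apart from the other 8. They share the mouse labelled TG4, and after the exchange they share the mouse labelled WT5 in the same channels. The SD of the log2 ratios over all probes was 0.321 and 0.384 on these arrays and 0.138 to 0.226 on the others. The correlation of the shared mouse's Cy3 and Cy5 signals, each as a deviation from its dye's mean, was 0.803 across probes, against 0.422 at most in the other channel pairs on different arrays. Both arrays lay on one side of the other 8 for 16.2% of all probes, and below them for 10.2%. The same share for the other mice was 1.11% to 4.19% as labelled and reached 6.77% with the exchange.

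**Figure D1:**
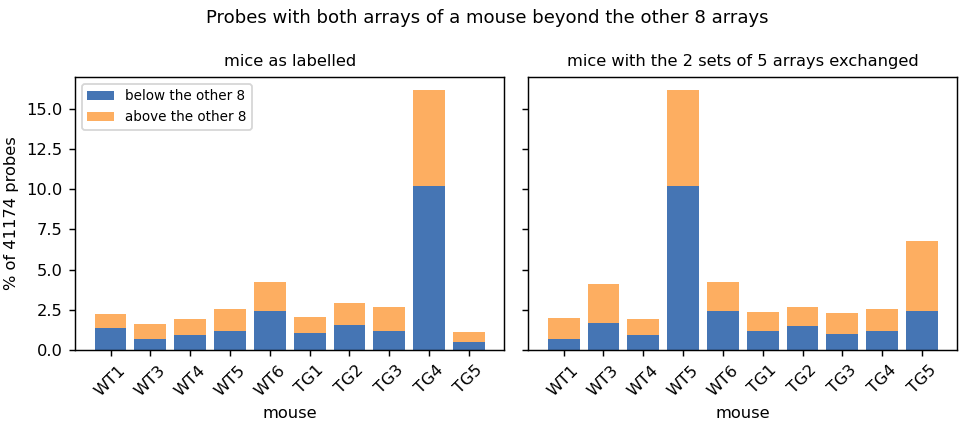
Percent of the 41174 probes (y axis) for which both arrays of a mouse (x axis) had log2 ratios below (blue) or above (orange) all other 8 arrays, as labelled (left) and with the 2 sets of 5 arrays exchanged (right). The mouse labelled TG4, which is WT5 after the exchange, reached 16.2%, and the other mice stayed at 6.77% or less.

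Sgip1 had low ratios on both of these arrays. The probe A_52_P35528 lies at chr4:101929926-101929985 in the coordinates of the array files, whose genome build is not named. Its log2 ratio was -1.52 on WT1/TG4 and -1.63 on WT3/TG4, and on the other 8 arrays it was between -0.55 and -0.03 with a median of -0.36. Its ratios were negative on all 10 arrays, with a mean of -0.57 ± 0.555 (SD). The probe A_52_P540342, at chr4:101926548-101927102, gave -1.51 and -1.46 on the pair of arrays and -0.78 to 0.19 on the others, with a mean of -0.54 ± 0.573 (SD, n = 10). The mean of the pair minus the mean of the other 8 arrays was -1.25 and -1.18 for these probes, or 2.38-fold and 2.26-fold lower, and in both probes the pair did not overlap with the others. With the deposited log10 ratio on the log2 scale, in place of loess, these deviations were -1.40 and -2.46. Without the mouse labelled TG4 the mean ratios on 8 arrays were -0.32 and -0.31, so the pair moved the mean of Sgip1 by more than 1.5 times.

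The signals of the single channels show on which side of the ratio Sgip1 differed. The shared mouse had a normalized log2 signal of 8.31 in Cy3 and 8.10 in Cy5 for A_52_P35528, whereas the lowest of the other 9 mice was 9.51 in Cy3 and 9.23 in Cy5. Its partners on the same 2 arrays had 9.94 and 9.62, within the range of the other mice. For A_52_P540342 the mouse had 6.24 and 5.94, against 7.36 and 7.01 in the lowest of the others. As means of both dyes for A_52_P35528, the WT mice had 9.63 (WT1), 9.86 (WT3), 10.03 (WT4), 9.95 (WT5) and 9.73 (WT6), and the TG mice had 9.54 (TG1), 9.62 (TG2), 9.59 (TG3), 8.20 (TG4) and 9.41 (TG5). As labelled, the groups did not overlap in this probe, with 9.84 ± 0.161 (SD, n = 5) in WT and 9.27 ± 0.601 in TG, although the highest TG mouse and the lowest WT mouse differed by less than the SD of either group. In A_52_P540342 they overlapped, at 7.54 to 8.06 in WT and 6.09 to 7.61 in TG. How many of all probes have groups without overlap was not counted, and Sgip1 was chosen by its values. With the exchange, the mouse with the low Sgip1 signal is a WT mouse. The groups then overlap in A_52_P35528, at 8.20 to 9.67 in WT and 9.65 to 9.97 in TG.

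**Figure D2:**
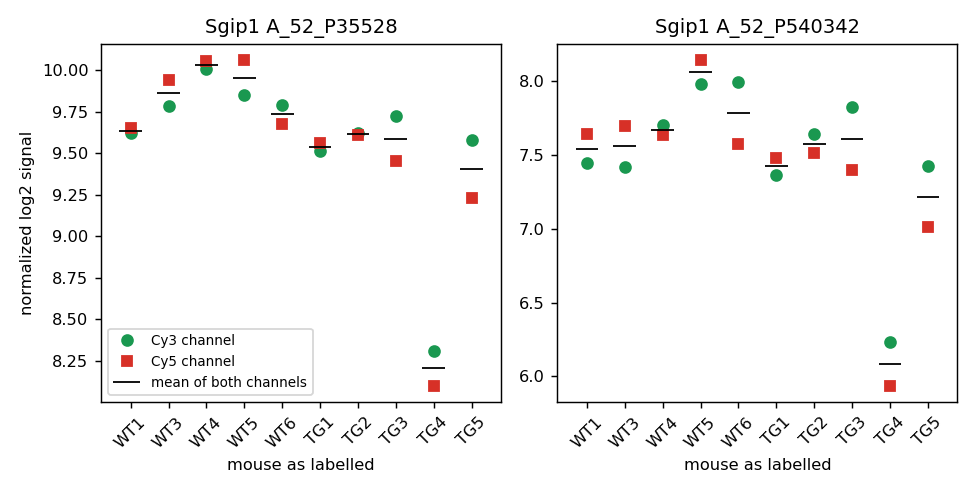
Normalized log2 signal of the 2 Sgip1 probes (y axes) in each mouse as labelled (x axes), with the Cy3 channel as circles, the Cy5 channel as squares and their mean as a line. The mouse labelled TG4 had 8.31 and 8.10 in A_52_P35528 and 6.24 and 5.94 in A_52_P540342, below all other mice in both dyes.

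Another 2 probes with no gene name lie on the same strand near Sgip1 in the files and were looked at after their values were seen. A_51_P328951, at chr4:101930484-101930543, had -0.37 and -0.44 on the pair and -0.62 to -0.15 on the others. A_52_P1091554, at chr4:101936083-101936142, had 0.26 and 0.20 on the pair and -0.37 to 0.21 on the others. Neither stood below the other arrays as the probes of Sgip1 did. Whether they belong to a Sgip1 transcript was not tested.

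Fcho2, another muniscin, was also low on the pair of arrays. The probe A_52_P50455 (chr13:94912865-94912924) gave -0.95 and -1.36 on the pair and -0.71 to 0.08 on the other 8, with a median of -0.33. The probe A_51_P171376 (chr13:94913719-94913778) gave -0.49 and -0.81 on the pair and -0.60 to -0.03 on the other 8, so that only WT3/TG4 was beyond the other arrays. The mean of the pair minus that of the other arrays was -0.81 for A_52_P50455 and -0.42 for A_51_P171376, and it was -1.14 and -1.77 with the deposited ratio. In the single channels the shared mouse was lowest of all 10 mice in both dyes for both probes. Its Cy3 and Cy5 signals were 6.90 and 6.81 for A_52_P50455, against 7.60 and 7.45 in the lowest other mouse. The mean log2 ratio of Fcho2 was -0.50 ± 0.122 (SE, n = 10; limma FDR = 0.0507) in A_52_P50455 and -0.32 ± 0.0738 (limma FDR = 0.0464) in A_51_P171376. Both probes fell in TG as labelled at the FDR limit of 0.1. On the 8 arrays that did not carry TG4 they were still called, with -0.34 (limma FDR = 0.0748) and -0.23 (limma FDR = 0.0864). With 1 value per mouse the SE of A_52_P50455 was 0.180, and neither probe was called (limma FDR = 0.447 and 0.512). Fcho1, the third muniscin, is on the pathway list and was named after its values were seen. Its probe A_52_P472233 (chr8:70858991-70859050) was high on the pair, at 0.59 and 1.04 against -0.09 to 0.28 on the other 8 arrays, with a mean of 0.23 ± 0.0991 (SE, n = 10; limma FDR = 0.23).

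**Figure D3:**
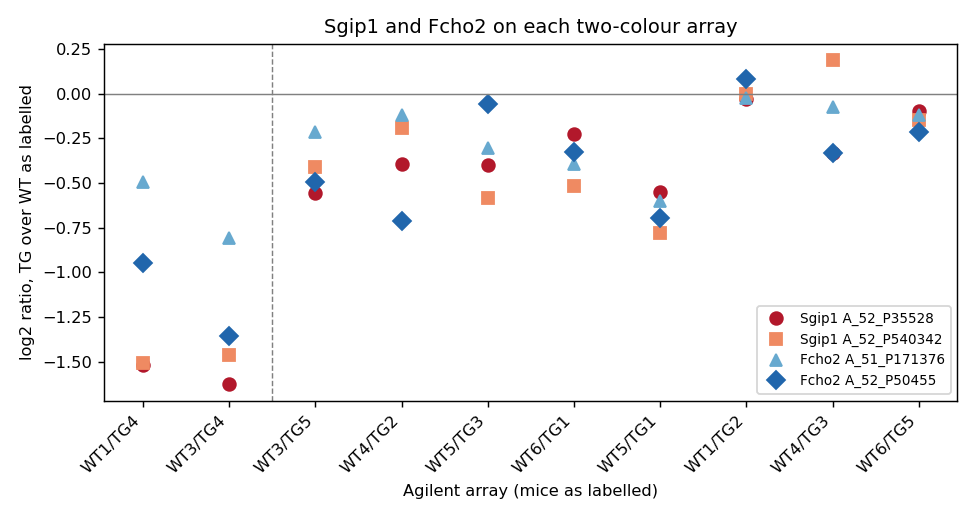
Log2 ratio of TG over WT as labelled (y axis) of the 2 Sgip1 and the 2 Fcho2 probes on each of the 10 Agilent arrays (x axis, the pair of the mouse labelled TG4 left of the dashed line). The Sgip1 probes lay between -1.63 and -1.46 on the pair and between -0.78 and 0.19 on the other arrays.

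The dynamins did not move one way on the pair of arrays. Dnm1, the main dynamin of nerve terminals, was higher there: A_51_P219868 gave 0.66 and 0.85, and the other 8 arrays lay between -0.15 and 0.38. Dnm2, the ubiquitous dynamin, has 3 probes along the gene, and their order in the files followed the order of their deviations. The probe nearest the 5′ end, A_52_P177260 (chr9:21374580-21374639), was low, at -0.71 and -0.61 against -0.19 to 0.14 on the other arrays. The middle probe, A_52_P271614, was at -0.11 and -0.02 against -0.03 to 0.32. The probe nearest the 3′ end, A_51_P390328 (chr9:21395856-21395915), was high, at 0.50 and 0.55 against -0.03 to 0.15. The deviation of the pair was -0.67 for the 5′ probe and 0.48 for the 3′ probe, or -1.88 and 0.72 with the deposited ratio. Dnm3, a dynamin of neurons, was low in A_51_P448458, at -0.40 and -0.23 against -0.10 to 0.07. Its other probe, A_52_P164286, spread from -0.26 to 1.24 on the other arrays and had -0.14 and -0.55 on the pair.

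The AP-2 subunits, the amphiphysins and synaptojanin varied as well. Ap2a1 was higher on the pair, at 0.42 and 0.35 against -0.09 to 0.19 on the other arrays, whereas Ap2b1 had -0.35 and -0.17 against -0.29 to 0.31. Bin1, which encodes amphiphysin 2, had the lowest value of any member probe other than those of Sgip1. Its 5′ probe A_52_P384956 gave -1.59 and -1.39 on the pair and -0.24 to 0.19 on the others, and the shared mouse had signals of 6.63 and 6.56 against at least 8.04 and 8.02 in the other mice. The deviation of this probe was -1.48, or -2.15 with the deposited ratio. Its 3′ probe A_51_P350513 gave 0.30 and 0.01 against -0.28 to 0.18. Amph had -0.29 and -0.08 against -0.27 to 0.04. The probe of Synj1 was not above the negative controls in both channels of all arrays, and it had -0.06 and -0.01 against -0.10 to 0.04. It was the member probe that failed this presence call, and the other 15 passed it.

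Both arrays lay beyond the other 8 for 7 of the 14 probes of the 9 other genes, 4 below and 3 above, against 16.2% of all probes and 18.8% of the present probes. With Sgip1, which chose the arrays, it was 9 of 16 probes, 6 below and 3 above. In the single channels the shared mouse was the lowest of 10 in both dyes for 6 of 16 probes: both of Sgip1, both of Fcho2, the 5′ probe of Dnm2 and the 5′ probe of Bin1. Over all probes this share was 9.45%. Both Sgip1 probes chose the mouse, and the others of these 6 are among the 14 probes of the 9 other genes. The shared mouse was the highest of 10 in both dyes for Dnm1 and the 3′ probe of Dnm2, and for 2409 of all 41174 probes. These are counts over few probes, several of which share a gene, and nothing was tested on them.

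**Figure D4:**
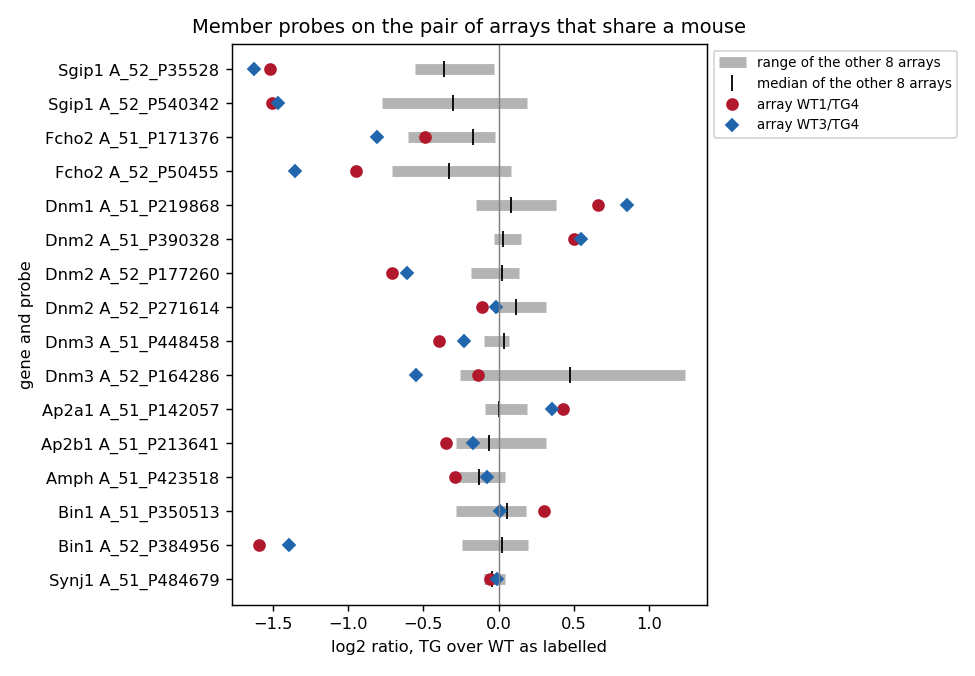
Log2 ratio of TG over WT as labelled (x axis) of the 16 member probes (y axis) on WT1/TG4 (circles) and WT3/TG4 (diamonds), with the range (grey bar) and the median (line) of the other 8 arrays. For 9 probes both points lie outside the bar, among them the 2 Dnm2 probes that lie on opposite sides.

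A difference between 5′ and 3′ probes was not limited to the members. In 5314 genes with at least 2 probes on one strand, the median log2 ratio of the 5′ probe minus the 3′ probe was -0.11 on WT1/TG4 and -0.09 on WT3/TG4. On the other 8 arrays it was between -0.03 and 0.06. For probes up to 500 bases apart the medians were -0.02 and 0.01 on the pair, and for probes 5000 to 20000 bases apart they were -0.19 and -0.16, against -0.04 to 0.07 on the others. These distances are genomic and include introns, and beyond 20000 bases the medians were -0.07 and -0.06, against 0.00 to 0.07. Bin1 had a difference of -1.89 and -1.40 on the pair and -0.43 to 0.40 elsewhere. Dnm2 had -1.21 and -1.16 on the pair and -0.21 to 0.15 elsewhere. The 2 named probes of Sgip1, 3130 bases apart, had 0.01 and 0.16, within the -0.29 to 0.52 of the other arrays, so both were low alike. The unnamed probe A_51_P328951 lies further 3′ on the same strand. Its log2 ratios were -0.37 and -0.44 on the pair, within those of the other arrays. Whether it belongs to a Sgip1 transcript was not tested. In Fcho2 the 5′ probe was the less low, with 0.45 and 0.55 against -0.25 to 0.59. The part of probe position in the low signals of Sgip1 and Fcho2 was not tested.

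**Figure D5:**
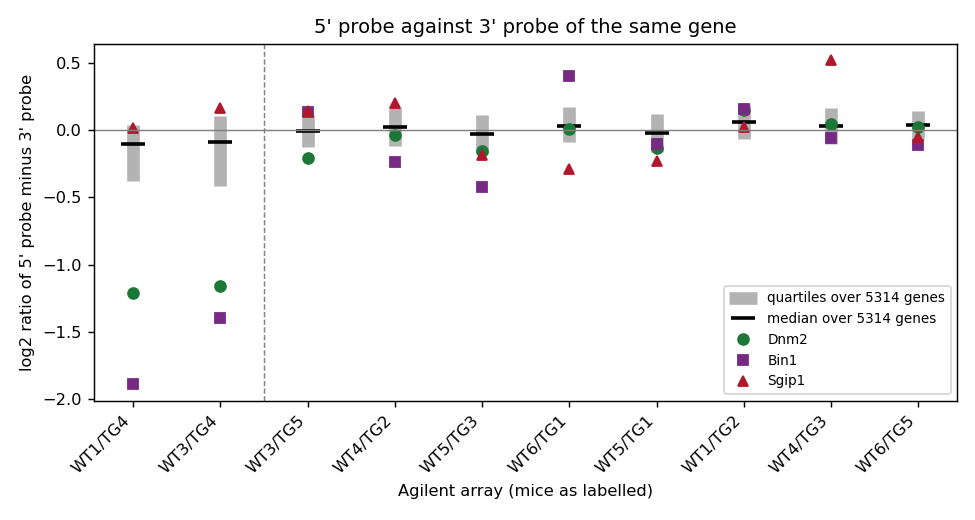
Log2 ratio of the 5′ probe minus that of the 3′ probe of the same gene (y axis) on each array (x axis, the pair of the mouse labelled TG4 left of the dashed line), as median (line) and quartiles (grey) over 5314 genes and for 3 members. Dnm2 and Bin1 lie between -1.89 and -1.16 on the pair, and Sgip1, by its named probes, at 0.01 and 0.16.

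Between TG and WT as labelled, 3 of the 14 probes of the 9 other genes were called at an FDR of 0.1, where 7.41% of all probes were. The called probes were both of Fcho2 and that of Amph, at -0.13 ± 0.0329 (SE, n = 10; limma FDR = 0.0524), and all fell. Amph, the amphiphysin enriched at nerve terminals, was negative on 9 of 10 arrays. The median log2 ratio was -0.04 over the 14 probes and 0.00 over all probes. Dnm1 was at 0.23 ± 0.0910 (limma FDR = 0.19), Ap2a1 at 0.09 ± 0.0528 (limma FDR = 0.413) and Ap2b1 at -0.08 ± 0.0573 (limma FDR = 0.535). The probes of Dnm2, Dnm3, Bin1 and Synj1 had limma FDRs of 0.235 to 0.745. On the 8 arrays without the mouse labelled TG4, 2 of 14 probes were called, both of Fcho2, and 4.90% of all probes. Since each mouse is on 2 arrays, the arrays are not independent samples. With 1 value per mouse none of the 14 probes was called by limma, 3 had an unadjusted p below 0.05, and the lowest FDR was 0.447. The count also fell to 0 without both arrays of WT3, WT4 or TG5, and to 1 without both arrays of WT5, TG1 or TG3, or without the single arrays WT3/TG5, WT4/TG2 or WT5/TG1.

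Of 53 further genes of the pathway, 51 had 88 probes, and 10 of these probes in 8 genes were called, 6 higher and 4 lower in TG as labelled, where 7.41% of all probes were called. The median log2 ratio of the list was -0.03. Ap2s1, the small sigma subunit of AP-2, rose in both probes, at 0.52 (limma FDR = 0.0176) in A_52_P128095 and 0.53 (limma FDR = 0.0273) in A_51_P419935. Its first probe was positive on all 10 arrays, between 0.18 and 1.01, and the second was between -0.02 and 1.05. These ratios were 0.49 and 0.51 without the mouse labelled TG4. Picalm, a clathrin assembly protein, fell in A_51_P183400, at -0.16 (limma FDR = 0.028). Its other probe, A_52_P407220, was at -0.72 and was not called (limma FDR = 0.112). Wasl, an activator of actin branching, was called in opposite directions, at 0.56 (limma FDR = 0.054) in A_52_P96782 and -0.19 (limma FDR = 0.0704) in A_52_P520564. Fnbp1l, which links curved membrane to actin, was at 0.27 (limma FDR = 0.0672) in A_52_P113000 and at 0.03 (limma FDR = 0.769) in A_52_P19894. Sh3gl1, an endophilin, was at 0.11 (limma FDR = 0.0812), and Eps15l1, an endocytic scaffold, at 0.09 (limma FDR = 0.0717). The phosphoinositide phosphatases Ocrl and Inpp5f fell by 0.21 (limma FDR = 0.0517) in A_52_P434934 and 0.12 (limma FDR = 0.0516) in A_51_P176054. Their other probes were not called. Ocrl A_52_P632067 was at -0.06 (limma FDR = 0.74). Inpp5f A_52_P213561, which failed the presence call, was at -0.60 (limma FDR = 0.147).

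By role, called probes were 4 of 40 among adaptors and initiators, 0 of 4 for the clathrin chains, 2 of 23 for curvature and fission, 2 of 15 for uncoating and lipids and 2 of 6 for actin at the pit. The share called over all probes was 7.41%. Without the mouse labelled TG4, 6 of the 88 probes were called, against 4.90% of all probes. With 1 value per mouse none of the list was called by limma, and 24 of all 41174 probes were. At an unadjusted p below 0.05 these were 11 of the list and 3308 of all probes, which is 8.03%. On the pair of arrays 31 of the 88 probes lay beyond the other 8, 19 below and 12 above, where 16.2% of all probes lay beyond and 10.2% below. The clathrin chains were named after their values were seen. For the heavy chain Cltc the mean of the pair minus that of the other arrays was -1.73 in A_52_P3835, beyond the other arrays, and 0.20 in A_51_P311525, within them. For the light chains it was 0.42 in the Cltb probe A_51_P238217, beyond the other arrays, and -0.15 in the Clta probe A_51_P197321, not beyond them on both.

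Of the genes with a present probe, Nckap1, a subunit of the WAVE actin complex, was the one most like Sgip1 over the 10 arrays, with a Pearson r of 0.994. It had -3.03 and -2.94 on the pair and -1.01 to 0.26 on the other arrays. Hnrnpdl, an RNA-binding protein, followed with 0.992, Gm10413 with 0.989, Map7, a microtubule-associated protein, with 0.989, Fbxo11, a ubiquitin ligase subunit, with 0.988 and Zdhhc17, a palmitoyltransferase, with 0.987. Over the 8 other arrays their r was 0.910 to 0.963. These 8 are among the 10 arrays by which the genes were picked, so these values are no separate support. How many of all genes reach such an r without the pair was not counted. Over all 10 arrays, 509 of 15308 genes compared had an r above 0.9 and 66 below -0.9. Among the members r was 0.982 for Bin1, 0.901 for Fcho2, 0.653 for Dnm3, 0.646 for Ap2b1 and 0.548 for Dnm2. It was 0.203 for Amph, -0.024 for Synj1, which had no present probe, -0.870 for Ap2a1 and -0.923 for Dnm1. Each r is of the mean over a gene's probes. The 3′ probe of Bin1 was not low on the pair, at 0.30 and 0.01. These correlations describe 10 arrays that share mice. Without the pair r was 0.867 for Bin1, 0.790 for Fcho2, 0.611 for Ap2b1, -0.307 for Ap2a1 and -0.671 for Dnm1. For Dnm2, Amph, Synj1 and Dnm3 it was between -0.201 and -0.0398.

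The gene of the transgene, Dclk1, was not called by limma in its 4 probes, which had mean ratios of -0.08 to -0.06 and FDRs of 0.492 to 0.729. Whether these probes match the transgene's transcript was not tested. Of the marker lists of the tissue, all 12 probes of pan-neuronal and 6 of pyramidal genes were present, and Dsp, a dentate granule cell gene, was the one marker gene with a probe below the presence call. On the pair of arrays, 6 of 11 oligodendrocyte probes lay beyond the other 8, 5 of them below, against 16.2% of all probes and 18.8% of the present probes. The median log2 ratio of the oligodendrocyte list was -0.20 and -0.36 there and -0.30 to 0.17 on the others. Among neuronal markers 6 of 12 probes lay beyond, 3 on each side, and among astrocyte markers 4 of 9. Of 14 lists, that of thalamus genes was the one whose median lay beyond the other 8 on both arrays, at -0.33 and -0.16 against -0.10 to 0.19, with 2 of 7 probes beyond, both below. The part of these in the values of the endocytosis genes was not tested. No member was named among the 311 named identifiers of the 33012 ABI probes, so the second platform gave no value for them.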

How the data were processed

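Total RNA from the hippocampi of single mice was amplified and labelled with Cy3 and Cy5 for the Agilent arrays. According to the headers of the files, spots were read with Feature Extraction 8.5.1.1. The authors deposited the spot intensity (mean or median of pixels) and the local background, neither of them normalized. Per the file headers there is also a log10 ratio of Cy5 over Cy3, which the software corrected for background and dye. The authors deposited raw intensities for ABI. The 80 per-sample columns of the Illumina table were not used, since the labels do not pair them with mice, and AFF and LGTC arrays were not used here.

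Groups came from the genotype, mouse and dye in the sample titles. Mean intensities were normalized by loess within each array without background correction, with control spots at weight 0. Spots of a probe were averaged, and ratios were turned to TG over WT as labelled on the log2 scale, which was computed here from the deposited intensities. Single channels were normalized by loess and Aquantile. Of 41174 probes, 22072 were named by accession, 1442 by description, and 17660 had no name. limma 3.58.1 in R 4.3.3 fitted an intercept over 10 arrays, with Benjamini and Hochberg FDRs over all probes and a limit of 0.1. A probe was present if, on every array, Cy3 and Cy5 both exceeded the 95th percentile of the 314 negative controls. The 5′ and 3′ order of probes came from the strand and coordinates in the files. ABI signals were quantile normalized on the log2 scale. The fit was tested on simulated data with independent arrays, so shared mice and a deviating pair of arrays were not part of that test.

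Named here are all member probes, up to 12 called genes of the pathway list with the smallest FDR, the 6 genes most correlated with Sgip1, Dclk1 and Tmem254a. The members, the lists and the tests were chosen with earlier results of these data known. Alternatives were normexp with an offset of 50, median pixels, median centring, scale normalization, the deposited log10 ratio, a dye term, blocks of arrays that share a mouse, 1 value per mouse with and without the exchange, robust regression, present probes, an FDR of 0.05, genes in place of probes, and leaving out each array or both arrays of each mouse. The number of arrays limits the precision. The fit treats the 10 arrays as replicates, although they come from 5 mice per genotype with 2 arrays each, so its errors and p-values do not measure the spread between mice.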

Additional observations from a re-analysis of the deposited data

Results flagged for a closer look

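Of 70 groups of values, each of the 14 probes of the 9 genes other than Sgip1 over the 10 arrays, the 5 arrays of each dye orientation and the 5 mice of each genotype as labelled, 8 had a sample whose gap to its nearest neighbour took more of the group's range than Dixon's 95% critical value. Chance gives such a sample in about 1 in 20 groups, and the groups of a probe share values. The sample was the mouse labelled TG4 or one of its arrays in 7 of them. This rule was not run over all probes, so the share to set beside these counts is not known. Both arrays of TG4 lay beyond the other 8 for 16.2% of all probes. Among the TG mice it was TG4 for Dnm2 A_52_P177260 with a log2 signal of 5.993 and for Bin1 A_52_P384956 with 6.594. Among the arrays with WT in Cy3 it was WT1/TG4, with log2 ratios of -0.7109 for Dnm2 A_52_P177260, -1.592 for Bin1 A_52_P384956 and 0.4239 for Ap2a1. Among the arrays with WT in Cy5 it was WT3/TG4, with -0.6099 for Dnm2 A_52_P177260 and -1.392 for Bin1 A_52_P384956. The remaining one was WT4 among the WT mice for Bin1 A_51_P350513, with a log2 signal of 10.95. The causes were not tested.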

How the results depend on the processing

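As labelled, the mean log2 ratio of Sgip1 stayed negative under every alternative run for it, and the leave-one-out values ranged from -0.66 to -0.31. Both probes of Fcho2 stayed negative under all 32 alternatives run as labelled, from -0.88 to -0.23 and from -0.68 to -0.34, and the call was lost in 8 and 10 of them. The exchange is not among these and turns every sign. With 1 value per mouse and the exchange, the Sgip1 probes were at 0.57 and 0.54, and the Fcho2 probes at 0.32 and 0.50. The deposited log10 ratio, on the log2 scale, moved 8 of the 16 deviations of the pair, and kept the direction of these 8: in Dnm3 A_51_P448458 from -0.33 to -0.51, in Synj1 to -0.073, and those of Sgip1, Fcho2, Dnm2 and Bin1 as given with the results. The other counts depended on the setting. Median centring in place of loess left 1335 called probes in place of 3053, 1 of the 14 member probes and 3 of the 88 list probes, put both arrays of TG4 beyond the other 8 for 10.01% of probes, turned the deviations of Amph and Synj1 to 0.046 and 0.082, and turned Amph to 0.0039 and Dclk1 A_51_P270355 and A_52_P563818 to 0.043 and 0.033. With 1 value per mouse, 24 probes were called as labelled and 11 with the exchange, with 0 member and 0 list probes by limma in either. At an unadjusted p below 0.05 these were 3 and 11 as labelled, and 2 and 11 with the exchange. An FDR of 0.05 left 1203, 1 and 3 probes. The replicate block of the same WT mouse (consensus correlation -0.248) gave 5969 probes, 4 of the members and 23 of the list. That of the same TG mouse (-0.14) gave 4526 probes, 3 of the members and 14 of the list. Where the probes of a gene were averaged, Dnm2 was at 0.031, Dnm3 at 0.11, Bin1 at -0.13 and Wasl at 0.18, which turns the sign of Dnm2 A_52_P177260, Dnm3 A_51_P448458, Bin1 A_51_P350513 and Wasl A_52_P520564. The causes were not tested, except that a stricter limit passes fewer probes by construction.

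Leaving out arrays or mice gave 282 to 3404 called probes, 0 to 3 of the members and 0 to 13 of the list. The member count fell to 0 without WT3, WT4 or TG5 (4, 6 and 4 at an unadjusted p below 0.05), and to 1 without WT5, TG1, TG3 or the arrays WT3/TG5, WT4/TG2 or WT5/TG1. The list count fell to 0 without WT4 (21 at an unadjusted p below 0.05), and to 1 to 6 without WT3, WT5, any TG mouse, or the arrays WT3/TG5, WT4/TG2, WT5/TG1, WT4/TG3 or WT3/TG4. Dnm2 A_52_P177260 ranged from -0.18 to 0.0079 and Dnm3 A_51_P448458 from -0.079 to 0.014, with the positive values without TG4. The ABI comparison was not run, since no member was named there. Precision is limited by 5 mice per genotype.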
